A study of Mus musculus with 6 samples.

Results

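Most of the genes described here encode translation initiation factors. These proteins bring an mRNA, the initiator tRNA and the ribosomal subunits together at a start codon. The rest include the inhibitor genes Eif4ebp1, Eif4ebp2 and Eif4ebp3 and the noncoding entry Eif2c5. Every gene whose name begins with Eif followed by 1 to 6 was taken, leaving out the eIF2 alpha kinases (names beginning Eif2ak), the transport protein gene Eif4enif1 and entries with -ps in the name. The rule used names only and found 51 genes of the 55162 in either deposited table. The table of oocyte pools held 48 of them among 14165 genes, and the table of single oocytes held all 51 among 54658.

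All samples were mouse oocytes at metaphase II (MII), the arrested stage at which an egg is fertilised, and polyadenylated RNA was read with Smart-seq2, a full-length cDNA method. The knockdown samples were 4 pools of 10 oocytes each, all labelled young. Of these, 2 carried control short interfering RNA (siCtrl, with WT in the title) and 2 carried short interfering RNA against Plat (siPlat, with KD in the title), the gene of tissue-type plasminogen activator. The untreated samples were 59 single oocytes labelled aged and 35 labelled young. The labels named no strain, no age in weeks or months, no animals and no time between siRNA delivery and collection, so the spread between pools may be technical and each age counted as 1 sample without a test.

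An MII oocyte makes almost no new RNA, so the proteins it needs come from mRNAs stored during growth and translated on demand. Initiation usually starts when eIF4E binds the mRNA cap and, with the scaffold eIF4G and the helicase eIF4A, recruits the small ribosomal subunit. That subunit carries eIF3, the ternary complex of eIF2 with initiator tRNA, and the scanning factors eIF1, eIF1A and eIF5, and it moves along the leader until a start codon is accepted. The eIF4E-binding proteins block the cap step, and phosphorylated eIF2 blocks its own recycling by the exchange factor eIF2B.

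Start codon choice depends on the bases around it, foremost a purine at position -3 and a G at position +4, counting the first base of the start codon as +1. The sequences of 10 initiation factor mRNAs around their start codons are shown. Some of the factors act in start codon choice, and their own mRNAs are subject to it. Each runs from 12 bases before the start codon to 18 bases from its first base on, 5′ to 3′ as DNA letters on the transcript strand, from the longest coding transcript of GENCODE (GRCm38), with the base at -3, the start codon and the base at +4 in capitals.
Eif1 (chromosome 11, neither base): gaatcgtatCgtATGTccgctatccagaac
Eif1b (chromosome 9, neither base): cactagtgtCgcATGTccactatccagaac
Eif4e1b (chromosome 13, neither base): ttctctggtCagATGAacaaagttgagggt
Eif3b (chromosome 5, neither base): cagcgcgggCccATGCaggacgctgagaac
Eif2b1 (chromosome 5, both bases): ctcgaggaaGccATGGaggacggtgagtta
Eif4e (chromosome 3, both bases): gatcgatctAagATGGcgactgtggaaccg
Eif3e (chromosome 15, both bases): tcccccggcAagATGGcggagtacgacctg
Eif2s2 (chromosome 2, purine only): cgaactacaGccATGTccggggacgagatg
Eif5 (chromosome 12, purine only): taataagccAaaATGTctgtcaacgtcaac
Eif4g2 (chromosome 7, both bases): caagccgccAaaGTGGagagtgcgattgca

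Of the 49 initiation factor genes with an annotated context around an ATG, 21 (42.9%) had both bases, against 40.8% of 20442 coding genes starting at ATG. The 4 without either base were the first 4 listed, 8.16% of the members against 7.74% of coding genes. Eif1 and Eif1b, which encode near-identical forms of the factor that rejects poor start codons, share that context. Eif4g2 is annotated to start at GTG, so it is not among the 49. Both shares of the family were near those of coding genes as a whole.

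Before the results, the libraries were checked. Pools held 12142884 to 17475952 gene counts, and the pools of a group differed by more than counting error. Plat was at 441 and 439 CPM (counts scaled to the library total) in the siCtrl pools and at 51.4 and 39.0 CPM in the siPlat pools. Single oocytes held 2018226 to 11894782 gene counts. In 21 of the 59 aged oocytes, mitochondrially encoded genes took 6.78% to 61.6% of the counts, against 0.947% to 2.97% in the other 38 and 0.688% to 1.92% in the young oocytes. The 12 oocyte markers (among them Zp3, Gdf9 and Nlrp5) summed to 26275 to 30907 CPM in the pools, 18468 to 28426 in young oocytes and 18404 to 29085 in the 38, but to 825 to 5142 CPM in the 21. The 12 cumulus cell markers summed to at most 107 CPM in any young or aged oocyte, and the 6 of them present in the table of pools to 21.98 to 40.8 CPM. Blood markers summed to at most 129.9 CPM and stromal and endothelial markers to at most 229.9 CPM in any single oocyte. Comparisons with aged oocytes are therefore given with all 59 and with the 38.

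Levels were compared between genes as CPM per kb of the longest coding transcript. In siCtrl pools the highest were Eif1 at 852, Eif1b at 616.5, Eif2s2, the beta subunit of eIF2, at 566, and Eif2b1, the regulatory alpha subunit of eIF2B, at 557 CPM per kb. Eif4e3, a divergent cap-binding form, followed at 277 and Eif3i, an eIF3 subunit, at 268 CPM per kb. The order depends on the length used: per kb of all annotated exons the order was Eif1b (567), Eif1 (537), Eif2b1 (434), Eif4e3 (277) and Eif2s2 (213), with Eif3i at rank 9 (81.2). Young single oocytes were led by Eif2b1 at 507, Eif1 at 474 and Eif5a at 405 CPM per kb. Eif5a encodes a factor that now is best known for helping ribosomes through difficult peptide bonds in elongation.

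Subunits of a complex were far from equal in mRNA. Within eIF2 the siCtrl levels ran from 3.68 CPM per kb for Eif2s3x, the X-linked gamma subunit that holds GTP and the initiator tRNA, to 566 for Eif2s2, a ratio of 154. Within eIF2B they ran from 0.947 for Eif2b5, the catalytic epsilon subunit, to 557 for Eif2b1, a ratio of 588. Among the 14 eIF3 genes they ran from 0.235 for Eif3j1 to 268 for Eif3i, a ratio of 1138. The young single oocytes gave ratios of 159 for eIF2, 454 for eIF2B and 264 for eIF3. Per kb of all annotated exons the siCtrl ratios were 60.6, 466 and 372. Without Eif3j1 and Eif3j2, near copies whose separate levels are uncertain, the eIF3 ratio was 249 in siCtrl and 204 in young oocytes, per kb of transcript.

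**Figure D1:**
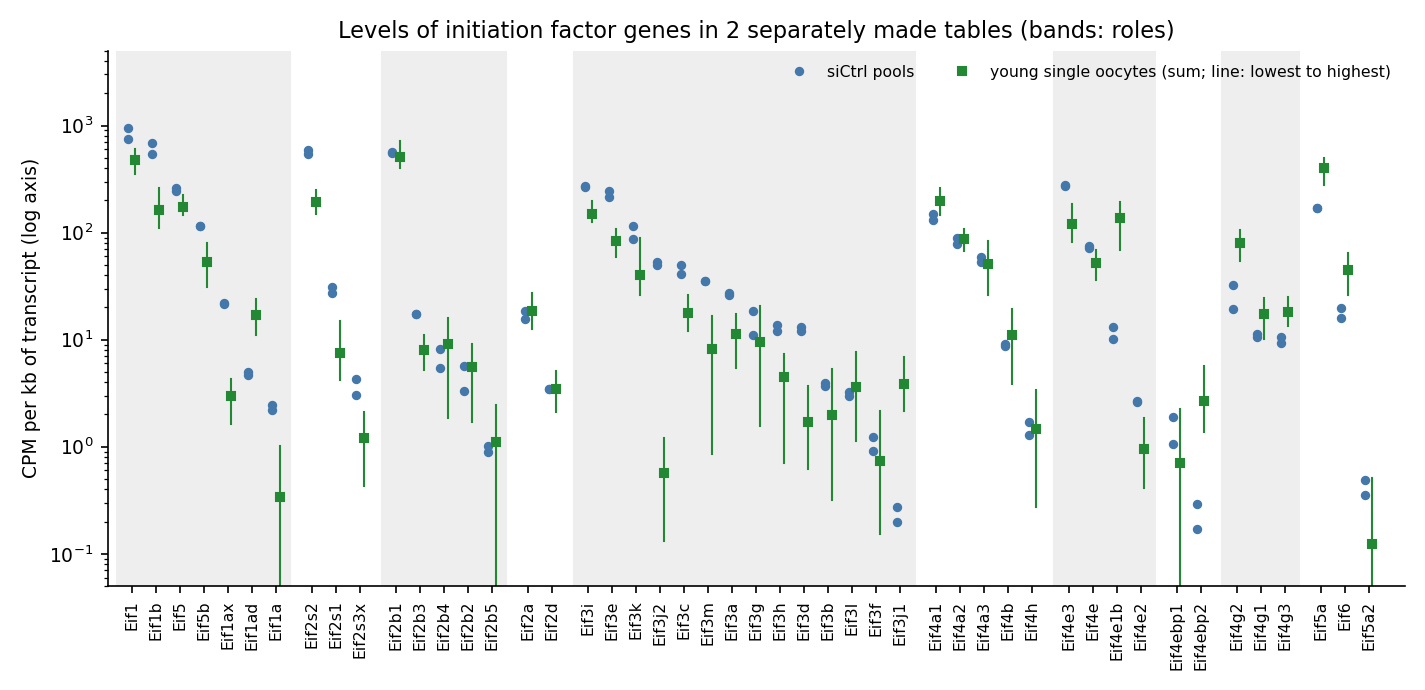
Levels of the 48 initiation factor genes found in both tables, in CPM per kb of transcript on a log axis, ordered by level within each role (shaded bands). Circles are the 2 siCtrl pools, squares the sum over 35 young oocytes, and lines run from the lowest to the highest young oocyte, reaching the axis where the lowest is at 0; within eIF3 the siCtrl levels span 0.235 to 268 CPM per kb.

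Paralogs were present at unequal levels. Of the cap-binding genes, Eif4e, the general form, was at 375 and 358 CPM in siCtrl pools and at 179 to 342 CPM (median 258) in young oocytes. Eif4e1b, a form restricted largely to oocytes and early embryos, was at 21.4 and 28.0 CPM in siCtrl but at 146.5 to 415 CPM (median 290.3) in young oocytes. Per kb, Eif4e was above Eif4e1b in siCtrl (73.4 against 11.6) and below it in young single oocytes (52.3 against 138). Eif4e2, which encodes a cap-binding repressor, was low in both tables, at 2.65 CPM per kb in siCtrl and 0.954 in young oocytes. The inhibitor genes were low too: Eif4ebp1 was at 2.13 and 3.81 CPM in siCtrl and Eif4ebp2 at 1.68 and 0.989 CPM, with 0 to 4.50 and 7.93 to 32.5 CPM in young oocytes. Eif4ebp3 had 0 counts in every single oocyte, as had the Y-linked Eif2s3y and the noncoding entry Eif2c5. Eif4ebp3 shares 67.3% of its exon bases with another annotated gene, so its reads may have gone uncounted and its 0 does not show absence. Over the young oocytes the floor of 3 counts corresponds to 0.00989 CPM, and the exact Poisson 95% interval of 0 counts reaches 0.0122 CPM.

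Among the helicases, Eif4a1 was at 265 and 235 CPM in siCtrl and 259 to 462.5 in young oocytes, and Eif4a2 at 239 and 211 CPM and 182 to 292.5. Eif4a3, whose protein sits in the exon junction complex rather than at the cap, was at 80.4 and 88.7 CPM and 39.2 to 125. Per kb the siCtrl levels were 141, 83.0 and 56.0, in that order, so the cap helicase genes were the higher of the 3. Of the scaffolds, Eif4g2 encodes a form that lacks the eIF4E-binding part. It was at 25.9 CPM per kb in siCtrl against 10.9 for Eif4g1 and 9.87 for Eif4g3, and at 80.4 in young oocytes against 17.4 and 18.1. The autosomal Eif1a was at 2.33 CPM per kb in siCtrl and 0.342 in young oocytes, under its X-linked paralog Eif1ax at 21.6 and 2.97. Eif1ad, a relative of eIF1A, was at 12.04 and 12.8 CPM in siCtrl and 28.1 to 60.7 CPM in young oocytes. Eif5a2 was at 0.424 CPM per kb in siCtrl against 169 for Eif5a.

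Over the 48 genes, siCtrl and young single-oocyte CPM gave a Spearman rho of 0.82 as a description across genes, with 0.75 over 7764 genes. The tables were made separately and the pools had received siRNA, so the differences between them have no test. Those 7764 genes had at least 5 CPM over both ages; the 39 of the 48 that met the same minimum also gave 0.82. With 1 CPM added to both values, 4 of these 39 (10.3%) were at least 4-fold apart, against 16.7% of the 7764 genes. Without the added CPM, 8 of all 48 were. The widest was Eif3j2, at 127 and 119 CPM in siCtrl but 0.310 to 2.84 CPM in young oocytes, whereas Eif3j1 was at 1.06 and 1.48 CPM in siCtrl and 11.6 to 37.1 CPM in young oocytes. Their coding sequences are near copies of each other (at least 95% identity), so reads can be assigned to either and the separate levels are uncertain.

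The first comparison asked which initiation factor mRNAs differ when Plat is depleted. With edgeR's quasi-likelihood test at a Benjamini-Hochberg adjusted p under 0.05, 5 of the 48 genes were called, 4 higher and 1 lower in siPlat. Over all 11136 tested genes 3.54% were called, 2.13% higher and 1.41% lower. The higher genes were Eif2s2, Eif3j2, Eif5 and Eif3e, and the lower one was Eif1a. All 4 increases lay between 1.64-fold and 1.92-fold. In a pool of 10 oocytes, a lower level in every oocyte and loss from some of them cannot be told apart.

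Eif2s2, which encodes the eIF2 beta subunit that contacts eIF5 and eIF2B, was at 1372.5 and 1505 CPM in siCtrl and at 2889 and 2530.1 CPM in siPlat. The mean rose from 1439 ± 93.7 to 2709 ± 253.5 CPM (SD, n = 2 per group), with the groups well apart. The log2 fold change was 0.91 (SE 0.14, edgeR adjusted p = 0.00774). The other eIF2 genes were not called. Eif2s1, the alpha subunit that stress kinases phosphorylate, went from 105 and 92.0 CPM in the controls to 144 and 166 in siPlat (log2 fold change 0.65, edgeR adjusted p = 0.0702). Eif2s3x went from 15.8 and 11.0 CPM to 10.2 and 6.75 CPM (-0.67, edgeR adjusted p = 0.305).

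Eif5 encodes the factor that makes eIF2 hydrolyse GTP at the start codon. The siCtrl pools held it at 1065 and 989 CPM and the siPlat pools at 1509.8 and 1857 CPM. The mean rose from 1027 ± 54.1 to 1683.5 ± 246 CPM. Its log2 fold change was 0.71 (SE 0.15, edgeR adjusted p = 0.0280). Eif1a moved the other way, from 6.27 and 7.06 CPM to 1.29 and 0.864 CPM, a log2 fold change of -2.62 (SE 0.47, edgeR adjusted p = 0.0146). It rested on 112 and 100 counts in siCtrl and 15 and 11 in siPlat. The X-linked paralog Eif1ax, at a far higher level, went from 111 and 113 CPM to 157 and 159.5 CPM, above both controls but not called (0.51, edgeR adjusted p = 0.122). Eif1, Eif1b, Eif1ad and Eif5b, the factor that joins the large subunit, were not called, with log2 fold changes of 0.23, 0.19, -0.30 and 0.39.

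In eIF3, the platform on the small subunit, 2 of 14 genes rose and 12 did not pass. Eif3j2, of the loosely bound j subunit, was at 127 and 119 CPM in siCtrl and at 239.9 and 232 CPM in siPlat (log2 fold change 0.94, SE 0.16, edgeR adjusted p = 0.0115). Eif3e, of the eIF3 core, was at 366 and 321 CPM in siCtrl and at 682 and 496 CPM in siPlat (0.78, SE 0.18, edgeR adjusted p = 0.0400). The siPlat pools of Eif3e differed from each other more than the siCtrl pools did, yet both lay above both controls. The median log2 fold change over the 14 genes was -0.13. Eif3a, the largest scaffold subunit, was the lowest by p among those not called, at 133 and 139 CPM in siCtrl and 87.1 and 99.2 in siPlat (-0.55, edgeR adjusted p = 0.111).

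**Figure D2:**
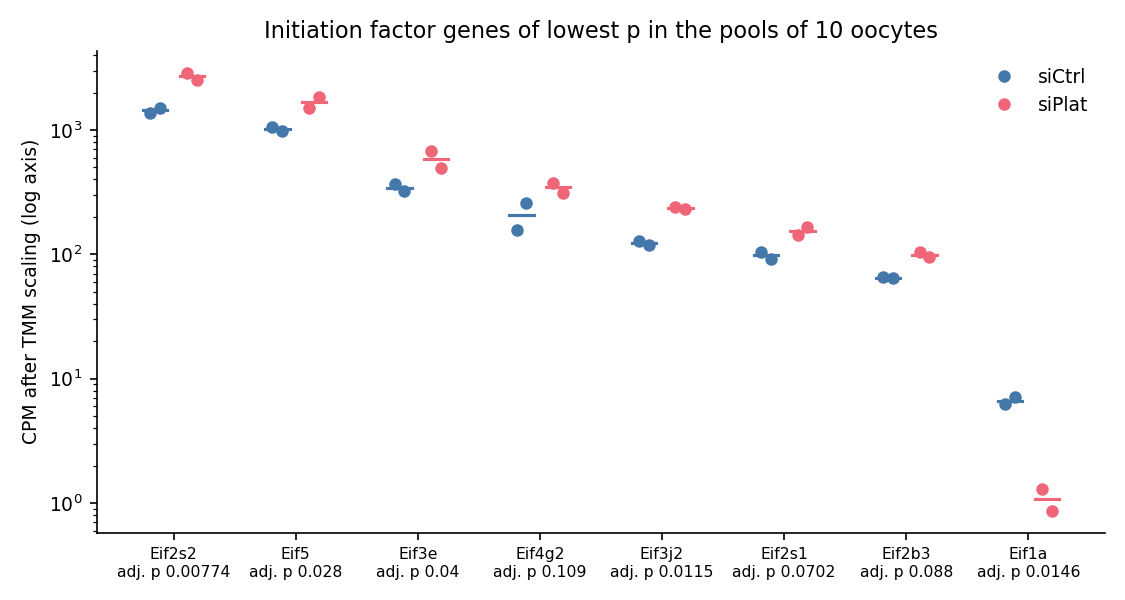
CPM after TMM scaling (log axis) of the 8 initiation factor genes of lowest p, per pool (points, 2 siCtrl and 2 siPlat) with the group mean (line). Eif2s2 rose from 1439 to 2709 CPM and Eif1a fell from 6.67 to 1.08 CPM; the groups do not overlap in these 8 genes, which were chosen by their low p.

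No gene of eIF2B, eIF4A with its cofactors, eIF4E, the eIF4E-binding proteins, eIF4G, eIF5A with eIF6 or the alternative tRNA factors Eif2a and Eif2d was called by edgeR. Of these 24 genes 3 had an unadjusted p under 0.05, DESeq2 called 2 (Eif2b3 and Eif4g2) and limma-voom 0. Eif2b3, a subunit of the catalytic part of eIF2B, was nearest, at 65.5 and 64.6 CPM in siCtrl and 104 and 94.4 in siPlat (log2 fold change 0.61, edgeR adjusted p = 0.0880). Eif4g2 went from 156 and 258 CPM to 377 and 313 CPM (0.74, edgeR adjusted p = 0.109), with a wide spread between the controls. Cap-binding genes had log2 fold changes from -0.31 (Eif4e3) to 0.39 (Eif4e2), and helicase genes from -0.28 (Eif4b) to 0.47 (Eif4a2).

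Across the 48 genes, 36 differed by less than 1.5-fold and the median log2 fold change was 0.10, against -0.03 over all tested genes. An unadjusted p under 0.05 was reached by 12 of the 48 against 18.8% of all genes. Both siPlat pools lay above both siCtrl pools for 16 genes (23.5% of all genes did) and below them for 11 (25.8%), and the groups overlapped for 21.

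**Figure D3:**
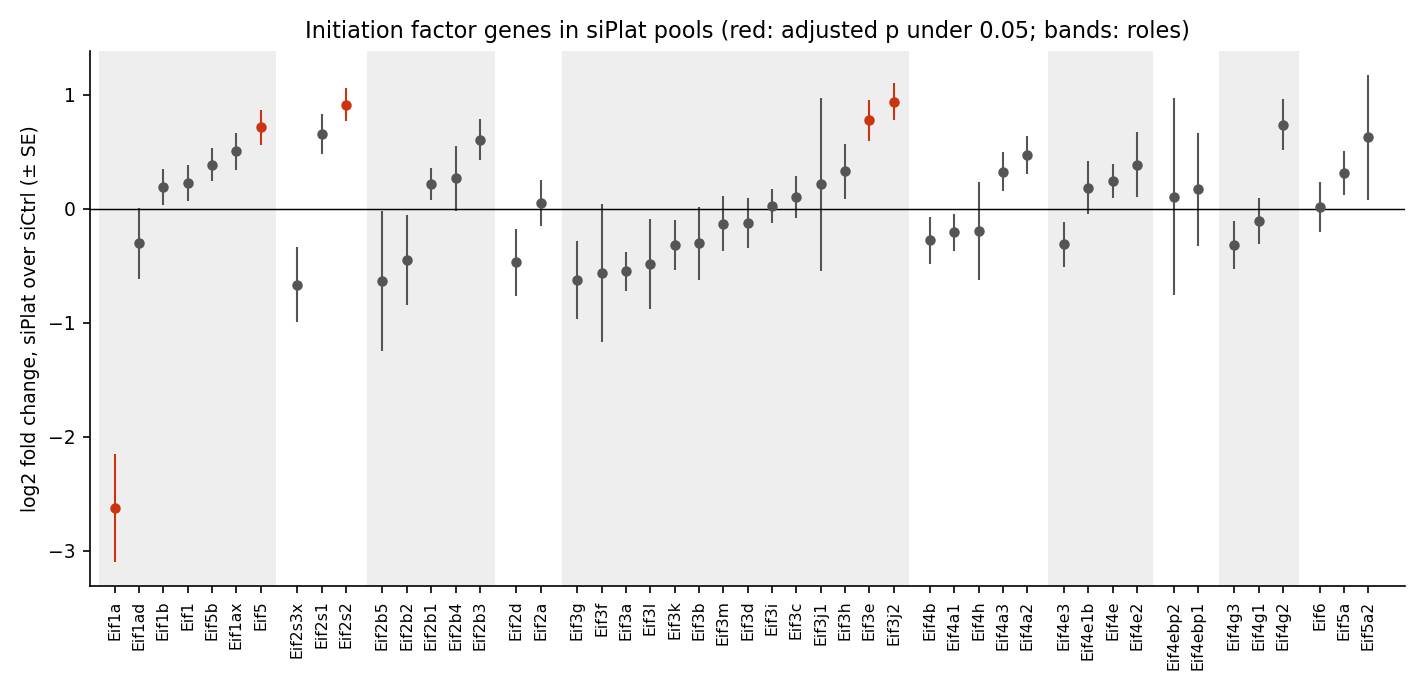
Log2 fold change of siPlat over siCtrl (points) with its standard error (lines) for the 48 genes, ordered within roles (bands). Red marks the 5 genes of adjusted p under 0.05: Eif1a at -2.62, and Eif5, Eif2s2, Eif3e and Eif3j2 at 0.71 to 0.94.

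Fewer of the 48 genes were called with a control pool left out, a fit that takes its spread from the siPlat pools alone. A call lost there is therefore no measure of how far the change rests on that pool. Without siCtrl 1, Eif1a was the only one of these 48 called (edgeR adjusted p = 0.0471, with 1.34% of all genes called); Eif2s2, Eif3j2, Eif5 and Eif3e had adjusted p of 0.108, 0.0797, 0.178 and 0.147. Without siCtrl 2, Eif2s2 was called (edgeR adjusted p = 0.0428) together with Eif4g2 (0.0329), with 1.37% of all genes called, and Eif3j2, Eif1a, Eif5 and Eif3e had 0.132, 0.0601, 0.271 and 0.295. Without siPlat 1 or siPlat 2 all 5 were called, among 8 and 10 of the 48 in all, with 6.0% and 9.66% of all genes called. Log2 fold changes stayed between 0.81 and 1.02 for Eif2s2, 0.89 and 0.99 for Eif3j2, 0.57 and 0.85 for Eif5, 0.53 and 1.001 for Eif3e, and -2.94 and -2.35 for Eif1a. Eif1a also lost its call with limma-voom (adjusted p = 0.0511). DESeq2 called 9 of the 48 (8.42% of all genes), limma-voom 4 (3.72%), edgeR with RLE factors 5 (3.6%) and edgeR with no filter 6 (4.13%).

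Close copies limit some of these values. Of the 51 genes, 17 have at least 1 annotated near copy of their coding sequence, among them Eif2s2, Eif3e, Eif3j2 and Eif1a, while Eif5 has none. How reads that fit several places were assigned is not given in the sources used here, and the level of each such gene is uncertain. In addition, 8 of the 51 genes share over 10% of their exon bases with another gene. How reads in shared exons were assigned is not given either.

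Cytoplasmic polyadenylation elements, the U-rich signals that recruit CPEB and lengthen the tails of stored oocyte mRNAs, were searched as TTTTAT and TTTTAAT on the transcript strand in the last 100 bases of the annotated transcript. Matches were present in 4 of 46 initiation factor genes, 8.70% against 17.8% of 19759 coding genes. The 4 were Eif1a, Eif1ax, Eif3j2 and Eif4e3, so of the 5 genes called in siPlat, 2 held a match. The last 100 bases of Eif1ax held no polyadenylation signal (AATAAA or ATTAAA), while those of Eif1a, Eif3j2 and Eif4e3 did. Whether the matches act as elements was not tested. The sites of Eif1ax (chromosome X) and Eif4e3 (chromosome 6) are shown with the motif in capitals, starting 30 and 98 bases before the annotated end.
Eif1ax: tggatgTTTTATgctgcacaaatatatgta
Eif4e3: aaTTTTATttttgaactttatttaaagcat

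Of the 66 tested genes in 6 lists of other translation genes, 5 were called in siPlat (7.58%, against 3.54% of all genes). Among 19 genes of poly(A) tail control and mRNA masking, Dazl, an activator of maternal mRNA translation, rose from 1647 and 1870.2 CPM to 3566 and 3093 CPM (log2 fold change 0.92, edgeR adjusted p = 0.00799). Pabpn1l, an oocyte poly(A)-binding protein gene, fell from 334 and 330.0 CPM to 157 and 206 CPM (-0.87, edgeR adjusted p = 0.0239). Zar1l, a relative of the mRNA-storing Zar1, fell from 87.9 and 126 CPM to 58.3 and 39.9 CPM (-1.12, edgeR adjusted p = 0.0277). Of 11 genes of scanning, recycling and reinitiation, Denr, which strips tRNA from post-termination ribosomes, rose from 38.6 and 38.5 to 78.3 and 72.7 CPM (0.97, edgeR adjusted p = 0.0193). Of 7 termination genes, Upf2 of nonsense-mediated decay rose from 29.2 and 32.5 to 66.7 and 64.2 CPM (1.09, edgeR adjusted p = 0.0129).

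Each of these 5 calls was lost when at least 1 of the siCtrl pools was left out, while the folds changed little for Denr (0.97 in both) and Pabpn1l (-0.86 and -0.88) and stayed at 0.83 or more in size for Dazl, Upf2 and Zar1l. Without siCtrl 1 the adjusted p of Dazl, Pabpn1l, Denr and Upf2 were 0.117, 0.132, 0.13 and 0.119 (edgeR), and without siCtrl 2 those of Pabpn1l, Zar1l, Denr and Upf2 were 0.119, 0.216, 0.132 and 0.0541. Of the 29 eIF2 alpha kinase and phosphatase, cap access and elongation genes, 0 were called by edgeR, 4 had an unadjusted p under 0.05, DESeq2 called 1 (Eif2ak3, an eIF2 alpha kinase gene) and limma-voom 0. With 3.54% of all genes called, a count of 0 in lists this short is near the background. The kinase gene Eif2ak1 was at 113 ± 16.1 CPM in siCtrl and 88.0 ± 10.1 in siPlat, and Ppp1r15a, of the phosphatase that reverses the kinases, at 100.9 ± 4.45 and 69.7 ± 15.8 CPM (edgeR adjusted p = 0.331 and 0.174). The highest cap access genes, the helicase gene Ddx3x and the eIF4E transporter gene Eif4enif1, had log2 fold changes of 0.02 and -0.19.

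The second comparison set aged against young single oocytes. Levels of a set are CPM of its pooled counts. Log2 ratios added 1 CPM to both values and were taken over the 39 genes whose mean over the ages reached 5 CPM, and folds are on the same scale. With all 59 aged oocytes, 20 genes were higher and 19 lower, with a median log2 ratio of 0.02, against -0.07 over 8303 genes. At least 1.5-fold higher in aged were 3 of the 39 (Eif2s3x, Eif3j1 and Eif1ax), against 9.45% of all genes. Of these 3, Eif2s3x met the minimum only through the aged oocytes, as its young level was 4.40 CPM. At least 1.5-fold lower were 0, against 9.38% of all genes. Eif4a3 and Eif5a had the lowest ratios, -0.54 and -0.50. With the 38 aged oocytes of low mitochondrial share, 27 were higher and 12 lower (69.2% higher against 59.8% of all genes), and the median was 0.14 against 0.08. Again 3 were at least 1.5-fold higher (Eif3m, Eif1ax and Eif3l; 8.87% of all genes) and 0 were lower by that much (1.87%).

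Eif1ax was the member whose oocytes separated most between the young and the 38 aged of low mitochondrial share. Young oocytes lay at 8.35 to 22.4 CPM (median 15.2) and the 38 aged oocytes at 17.04 to 56.0 CPM (median 28.5). Of the 38, 31 lay above the highest young oocyte. Here and below, oocytes outside the young range were counted for members only, so no share over all genes stands beside them. The summed level was 15.4 CPM in young (exact Poisson 95% interval 14.9 to 15.8, which covers counting error only) and 29.5 CPM in these aged oocytes (28.9 to 30.2), a log2 ratio of 0.90. With all 59 aged oocytes the ratio was 0.68. The 21 aged oocytes of high mitochondrial share held Eif1ax at 13.4 CPM (median 9.55). Of these 21, 8 lay under the lowest young oocyte and 3 above the highest. The other scanning genes moved less: Eif1 went from 627 to 633 CPM, and Eif1b from 170 to 227 CPM, in the 38.

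Of the eIF3 genes with at least 5 CPM, 11 of 11 were higher in the 38 aged oocytes, against 59.8% of all genes. At the same minimum, 6 of 6 scanning and start codon genes and 3 of 3 eIF2 genes were higher too. Of the cap-binding genes, 0 of 3 were. The eIF3 log2 ratios were 0.04 to 0.97, with a median of 0.47 against 0.08 over all genes. With all 59 aged oocytes 8 of 11 were higher, against 43.6% of all genes, and the median was 0.16 against -0.07. In the other 21 aged oocytes the eIF3 log2 ratios ran from -2.78 (Eif3i) to 1.14 (Eif3j1). Eif3m, another core subunit, was at 1.09 to 21.5 CPM (median 9.25) in young oocytes and 5.91 to 41.0 CPM (median 20.2) in the 38, and 15 of the 38 lay above all young oocytes. Eif3c, which also binds eIF1 and eIF5, was at 41.1 to 88.6 CPM (median 57.9) in young and 54.5 to 140.3 CPM (median 88.9) in the 38, and 20 of the 38 lay above all young. Eif3l went from 2.20 to 14.97 CPM (median 6.90) to 4.35 to 20.7 CPM (median 11.5), with 10 of the 38 above all young. Eif3b (median 5.39 to 8.26 CPM) and Eif3j1 (20.2 to 28.8 CPM) were higher too, with 8 and 7 of the 38 above all young oocytes.

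Outside eIF3, Eif2b2, the beta subunit of eIF2B, went from a median of 8.84 CPM in young to 12.5 CPM in the 38 (log2 ratio of the sums 0.54), and Eif2s2 from 491 to 571 CPM (0.26). Eif2s3x was at 4.40 CPM in the young sum, at 6.49 in the 38 and at 9.67 over all 59, the highest ratio with all aged oocytes (0.98). Its young level is under 5 CPM, so it met the minimum only through the aged oocytes, in which it is higher. At the low end, Eif4e1b was at 146.5 to 415 CPM in young oocytes and at 114 to 316 CPM (median 212) in the 38, with 6 of them under the lowest young oocyte and a log2 ratio of -0.47. Eif4e, the general form, was at 176.8 to 324 CPM (median 247) in the 38, close to its young range of 179 to 342 CPM. Eif4g2 and Eif5a followed with log2 ratios of -0.20 and -0.17.

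**Figure D4:**
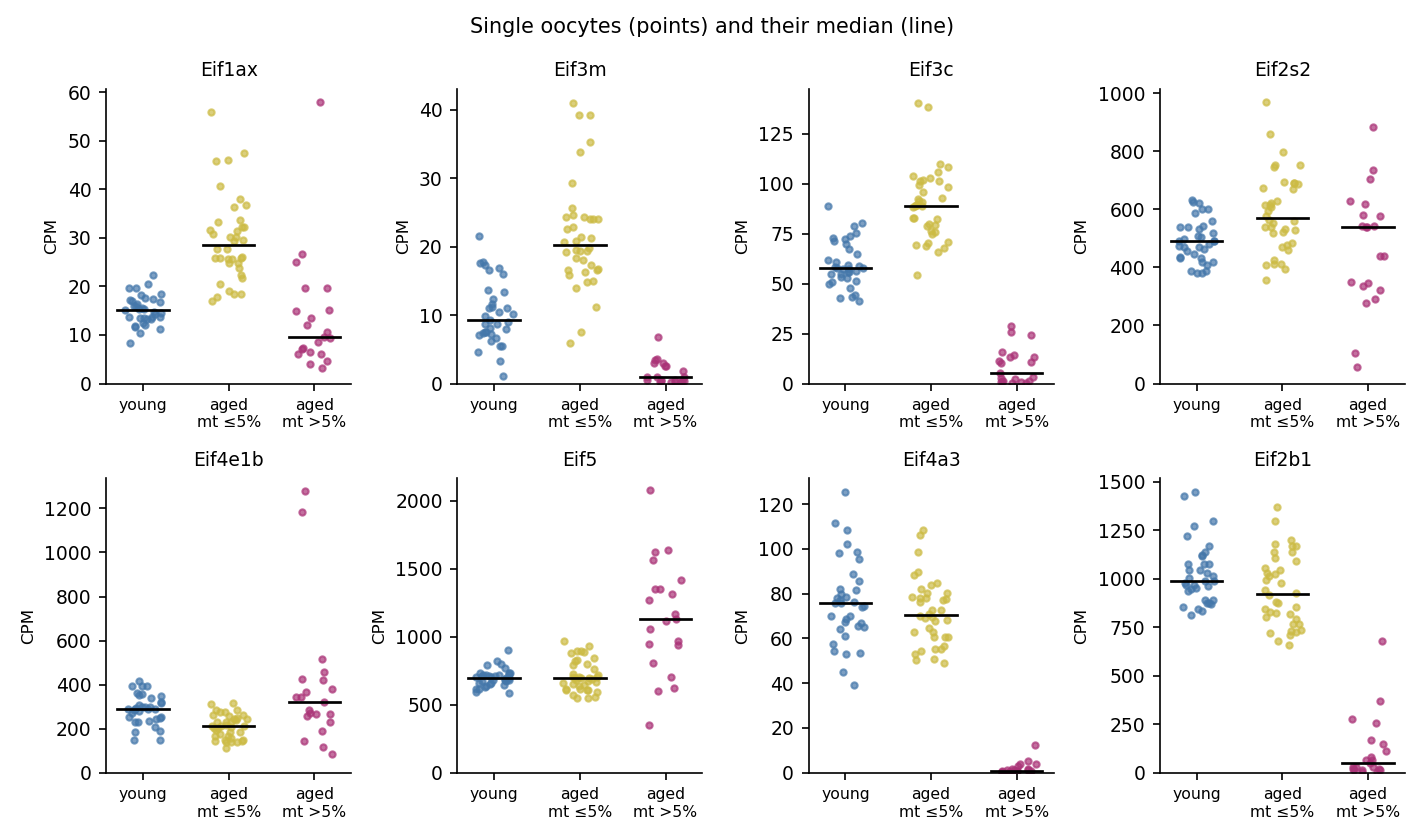
CPM of 8 initiation factor genes in each single oocyte (points, linear axes) with the median of each set (line), for 35 young oocytes, 38 aged oocytes of at most 5% mitochondrial share and 21 above it. For Eif1ax the medians are 15.2, 28.5 and 9.55 CPM, and for Eif4a3 75.7, 70.4 and 0.981 CPM.

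The 21 aged oocytes of high mitochondrial share differed in level by gene. Of 37 genes with enough CPM, 30 were lower than in young oocytes, 24 of them by at least 2-fold (64.9% against 46.8% of 7872 genes), and the median log2 ratio was -1.38 against -0.85 over all genes. With mitochondrial counts taken out of the denominator, the medians were -0.93 and -0.35. Eif4a3 was at 77.5 CPM in the young sum and 1.92 CPM in the 21, and all 21 lay under the lowest young oocyte. They did so too for Eif2b1 (1021 and 122 CPM) and Eif3c (59.7 and 8.30 CPM). The same held for Eif3e, Eif3i, Eif3k, Eif4a2 and Eif4e3. Eif5a was at 583 and 123 CPM, with 19 of the 21 under the young range.

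Other members kept or exceeded their share of the counts in the same 21 oocytes. Of the 37 genes, 7 (18.9%) were higher than in young oocytes, a smaller share than the 29.9% of all 7872 genes. Over nuclear counts the shares were 28.95% and 42.3%. Eif5 was at 698 CPM in the young sum and 1136 in the 21, and 16 of the 21 lay above the highest young oocyte. Eif2s3x was at 4.40 and 18.3 CPM (16 of 21 above), Eif4g1 at 98.2 and 165 CPM (13 of 21), Eif3j1 at 20.7 and 46.6 CPM (13 of 21) and Eif4ebp2 at 15.5 and 38.1 CPM (10 of 21). Eif4e1b was at 293 and 446 CPM, with 6 above and 3 below the young range and a log2 ratio of 0.60. Eif4e was at 261 and 252 CPM and Eif2s2 at 487 and 463 CPM. Over nuclear counts alone their log2 ratios were 0.45 and 0.42, so the sign of both depends on the denominator. The part that the high mitochondrial share, the lower depth and the low oocyte marker sum of these libraries have in these values was not tested.

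**Figure D5:**
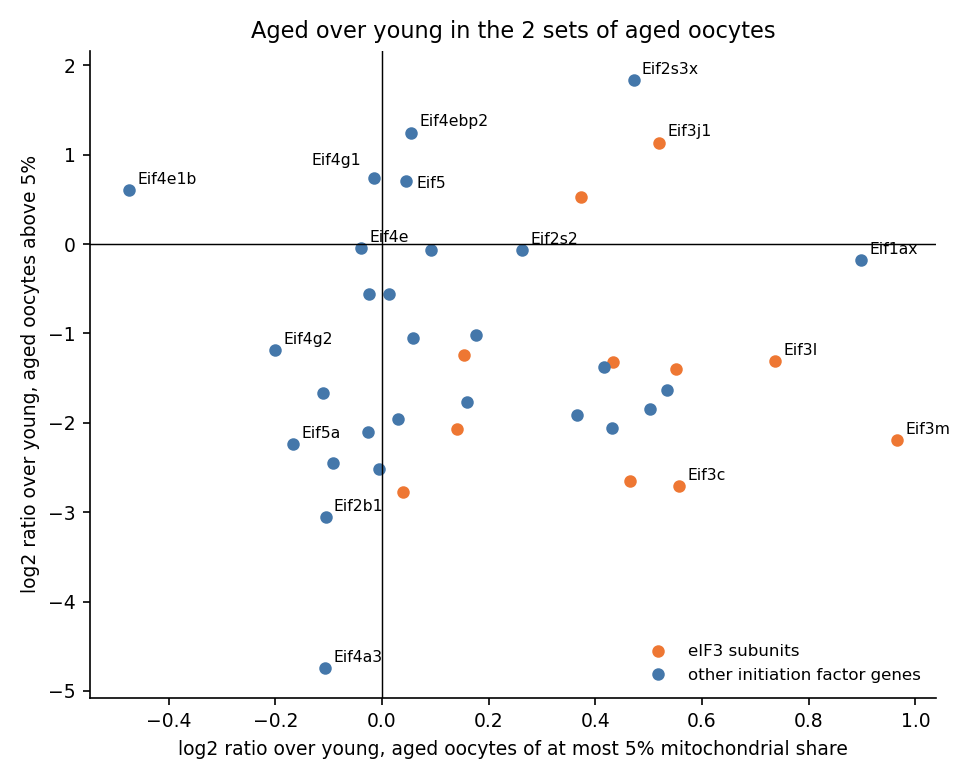
Log2 ratio over young oocytes for the 38 aged oocytes of low mitochondrial share (horizontal) and the 21 of high share (vertical). Both axes share the young oocytes as reference. The initiation factor genes shown had at least 5 CPM in the mean of young and low-share aged oocytes, with no minimum set for the 21. Orange points are eIF3 genes; they lie to the right of 0, and Eif4a3 lies lowest at -4.75.

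Between young oocytes, initiation factor genes of at least 5 CPM had coefficients of variation from 9.20% (Eif5) to 59.3% (Eif3b), with a median of 20.3% over 38 genes against 27.1% over 8229 genes. Eif5 at 589 to 906 CPM was the most even member, and Eif3b, at 0.936 to 15.8 CPM, the least even. Genes of low level carry more counting error, and its part in the spread of Eif3b was not tested.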

How the data were processed

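The deposited values are raw read counts by gene, without normalisation, for 4 pools and for 94 single oocytes. STAR 2.7.10b, HTSeq 0.13.5 and mm10 are named per the submitters' processing notes; strand setting, annotation and the treatment of multi-mapping reads are not given in the sources used here. Libraries start from poly(A) tails, so a shorter tail and less RNA cannot be told apart.

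Pools were tested with the robust quasi-likelihood fit of edgeR 4.0.16 (R 4.3.3, TMM factors, minimum count 10 and total 15), adjusted over all 11136 genes; SE is the log2 fold change over the square root of F. Alternatives were DESeq2 1.42.0, limma-voom (limma 3.58.1), RLE factors, no filter, each pool left out and a replicate block. CPM of pools are after TMM scaling. Single oocytes were summed by age; the 92 ERCC entries stayed out, and 0 columns of per-sample values were left unused.

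Genes chosen for naming were those called or of lowest p (to 8), the 6 highest per kb in siCtrl, and paralog families by name. The 6 largest age ratios with and without libraries above 5% mitochondrial share were chosen too. Genes called in the lists of other translation genes were also named, with the highest genes of some of these lists. The members and lists were chosen with earlier results of these data known. Exact Poisson intervals take reads as independent.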

Additional observations from a re-analysis of the deposited data

Results flagged for a closer look

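Entries with -ps in the name, which the naming rule left out, had counts in the single oocytes, data outside the comparisons above. Over all 94 oocytes, Eif4a-ps4 had 17900 counts (27.2 CPM in young and 27.0 CPM in aged oocytes, with a count in all 35 young and all 59 aged). The others were lower: Eif3s6-ps4 had 701 counts, Eif1-ps1 646, Eif3s6-ps1 162, Eif5al3-ps 122, Eif1-ps2 105, Eif3s6-ps2 62 and Eif2s3x-ps1 22, each at 1.21 CPM or less in either age. Eif1-ps3 had 1 count, under the floor of 3. Eif4a-ps4 is a near copy of the coding sequence of Eif4a1, which was at 353 CPM in young oocytes. Reads can be assigned to either, so the level of Eif4a-ps4 is uncertain. The same limit holds for Eif1-ps1 and Eif1-ps2 with Eif1, Eif3s6-ps2 with Eif3e and Eif5al3-ps with Eif5a.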

How the results depend on the processing

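Of the 48 initiation factor genes in the pools, 5 were called with edgeR and TMM, 9 with DESeq2 (8 higher, 1 lower; 42 had an adjusted p, and 8.42% of all genes were called) and 1 to 10 when a pool was left out. RLE factors gave 5, limma-voom 4 and no filter 6. With the replicate block 5 were called as well, while over all genes the calls went from 394 to 273; same-numbered pools did not deviate together (r = -0.10 across 11136 genes, which are not independent replicates), and nothing in the labels says whether equal numbers mark a shared day or animals. Log2 fold changes that turned sign were all of genes not called: Eif4ebp2 to -0.188 with limma-voom and -0.139 with the block, and, over the fits that left out a pool, Eif4ebp2 (-1.35 to 0.805), Eif3c (-0.0968 to 0.285), Eif3j1 (-0.00476 to 0.468), Eif3m (-0.538 to 0.197), Eif4ebp1 (-0.194 to 0.642), Eif4g1 (-0.305 to 0.0721), Eif2a (-0.0791 to 0.193), Eif6 (-0.130 to 0.181) and Eif4h (-0.392 to 0.0293). The median log2 ratio of aged over young, 0.0173, turned to -0.083 with the mean of oocyte CPM and -0.0058 with their median. It was 0.141 without the 21 aged libraries of high mitochondrial share, 0.141 with nuclear counts as the denominator and 0.0593 with no minimum CPM; the cause of these shifts was not tested. With pseudocounts of 0.1 and 5 CPM it was 0.0174 and 0.0168. With 2 pools a group, leaving 1 out assumes that the lone pool varies like the others.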

Other observations

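The other lists of translation genes are given here for the single oocytes, over genes of at least 5 CPM, as descriptions without a test, since each age is 1 sample. In the 38 aged oocytes of low mitochondrial share, 6 of 7 elongation genes were higher than in young oocytes, with a median log2 ratio of 0.34, against 59.8% of all genes and a median of 0.08. Eef1a1, the factor that delivers aminoacyl-tRNA to the ribosome, was at 31.1 CPM in young oocytes and 49.4 CPM in these aged oocytes. Of 19 genes of poly(A) tail control and masking 13 were higher (median 0.26), among them Zar1 at 1029 and 1294.5 CPM, while Dazl was at 1326 and 1292 CPM. Of 7 termination genes 4 were higher (median 0.31). Fewer were higher among the 11 cap access genes (4, median -0.09), the 6 eIF2 alpha kinase and phosphatase genes (2, median -0.09) and the 7 genes of scanning, recycling and reinitiation (3, median -0.02). With all 59 aged oocytes the medians were 0.14 for elongation, -0.01 for poly(A) tail control, -0.10 for termination, -0.19 for cap access, -0.38 for the kinases and phosphatase, and -0.14 for recycling.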
